A study of Mus musculus with 9 samples.

Results

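The FoxO genes described here were 10 in number: Foxo1, Foxo3 and Foxo4, which encode forkhead box O transcription factors, and 7 genes widely listed as their transcriptional targets, Irs2, Pik3ip1, Sesn1, Sesn3, Ccng2, Bcl6 and Tnfsf10. They were chosen by name as a set of FoxO genes, with earlier results of these data known. The same holds for the other gene lists below. A share of called genes above that of all genes is therefore a description and not a test. All 10 were found, in 24 transcript rows, among the 27203 gene identifiers of the deposited table. The expression level of a gene was the sum of the FPKM of its rows (fragments mapped to a transcript, scaled to its length and to the fragments mapped in the library). All 10 passed the minimum mean of 0.1 FPKM over the libraries that left 19378 genes for testing.

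Whole lung RNA came from 9 young male C57BL/6 mice, with 1 mouse per library and 3 mice per group. Control mice were intubated and not ventilated. The VILI mice received mechanical ventilation at a high tidal volume for several hours, under ketamine and xylazine with the muscle relaxant pancuronium, and were killed directly afterwards (VILI 0 h, for hours) or after 6 hours of recovery (VILI 6 h). Ventilation and the drugs that maintained it came together in both VILI groups, and their parts in a difference from control cannot be told apart. The file holds FPKM and no read counts per gene, and library read totals were not used here, so the count behind a value is not known and its precision is seen only in the spread of 3 mice.

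FoxO factors are the transcriptional arm of insulin and growth factor signalling. When phosphatidylinositol 3-kinase (PI3K) and the kinase Akt are active, Akt phosphorylates FoxO proteins, which then leave the nucleus. When the pathway is quiet, or when stress kinases act on them, FoxO proteins stay in the nucleus and switch on genes of growth arrest, stress resistance, catabolism and apoptosis, as well as genes such as Irs2 that restore insulin sensitivity. Because this control is exerted on the protein, the RNA level of a FoxO factor does not give its activity.

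The libraries were compared over 14108 genes with a mean of at least 1 FPKM. The mean distance between libraries (root-mean-square log2 difference) was 0.333 to 0.34 within control and 0.429 to 0.47 within VILI 0 h. VILI 6 h replicate 1 stood apart from its group, at 0.749 from the other libraries of VILI 6 h against 0.492 from control. Replicates 2 and 3 of VILI 6 h were at 0.592 and 0.696 from the other libraries of their group, distances that include replicate 1, and at 0.642 and 0.871 from control. Its summed FPKM of 5 erythroid markers was 489, against 3225 to 5419 in the other 8 libraries, while 10 neutrophil markers summed to 495 FPKM in it, against 52.7 to 65.2 in control. Over the 10 FoxO genes, its median absolute log2 difference from the control mean was 0.23, against 0.54 to 0.83 in VILI 0 h and 0.73 and 0.94 in the other VILI 6 h libraries. Its group label was kept as given, and whether the library differed in handling or in labelling was not tested, which leaves what the VILI 6 h values with it stand for uncertain. Most results that involve VILI 6 h are given with and without that library. Without it, VILI 6 h rests on replicates 2 and 3 only. The library was singled out after its values were seen to lie near control. Leaving it out therefore favours larger differences from control and smaller p-values, and such p-values are optimistic. Centring each library on its median moved the median log2 fold change of all genes from -0.07 to 0.05 in VILI 0 h vs control and from -0.09 to 0.04 in VILI 6 h vs control. The same centring took the genes with an unadjusted P under 0.05 that were higher from 1319 of 3130 to 1944 of 3176 and from 1583 of 3952 to 2270 of 3910, so a difference of about 0.1 on the log2 scale depends on the scaling.

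In VILI 0 h vs control, 8 of the 10 genes had an unadjusted P under 0.05 in limma, the threshold of the study, of which 6 were higher (Foxo3, Foxo4, Irs2, Pik3ip1, Sesn1 and Ccng2) and 2 were lower (Sesn3 and Tnfsf10). Among all 19378 genes 16.2% had such a P, 6.81% higher and 9.35% lower. In VILI 6 h vs control it was 5 of 10, with Foxo3 and Irs2 higher and Sesn3, Ccng2 and Tnfsf10 lower, beside 20.4% of all genes (8.17% higher and 12.2% lower). Between the VILI groups, Foxo4, Sesn1 and Ccng2 were lower in VILI 6 h than in VILI 0 h, 3 of 10 beside 10% of all genes (5.06% higher and 4.94% lower). The median log2 fold change of the 10 genes was 0.37, 0.14 and -0.33 in these comparisons, while that of all genes was -0.07, -0.09 and -0.02. The medians of the 10 genes without VILI 6 h replicate 1 were 0.37, 0.28 and -0.16, beside -0.07, -0.14 and -0.08 in all genes.

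No FoxO gene reached a Benjamini-Hochberg adjusted p under 0.05 over the 19378 genes in the limma fit of 9 libraries, whereas 0.284%, 0.702% and 0% of all genes did. Without VILI 6 h replicate 1, the counts with an adjusted p under 0.05 were 7, 6 and 1 of 10, beside 6.93%, 23.3% and 1.84% of all genes. The unadjusted counts without it were 9, 8 and 4 of 10, beside 23.2%, 38.8% and 22.4%. The fit that held only control and VILI 0 h gave 7 of 10 with an adjusted p under 0.05, beside 8.24% of all genes, and 9 of 10 with an unadjusted P under 0.05, beside 26.3%. The fits of the 6 libraries of the other comparisons gave 0 of 10 at an adjusted p under 0.05 in both, beside 0.186% and 0.00516% of all genes. They gave 2 of 10 each at an unadjusted P under 0.05, beside 17.4% of all genes in VILI 6 h vs control, a share near that of the members, and 6.24% between the VILI groups. The 3 libraries of VILI 0 h lay all above control for 7 of the genes (12% of all genes) and all below for 2 (21.6%), 9 of 10 without overlap beside 33.5% of all genes. For VILI 6 h none lay all above control (9.64%) and 3 lay all below (15%), beside 24.6% of all genes without overlap, and none lay all above VILI 0 h (6.25%) and 2 lay all below it (6.28%), beside 12.5% of all genes. Where groups of 3 did not overlap, the two-sided exact permutation test of a single gene gave p = 0.1, the smallest that 20 splits allow.

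**Figure D1:**
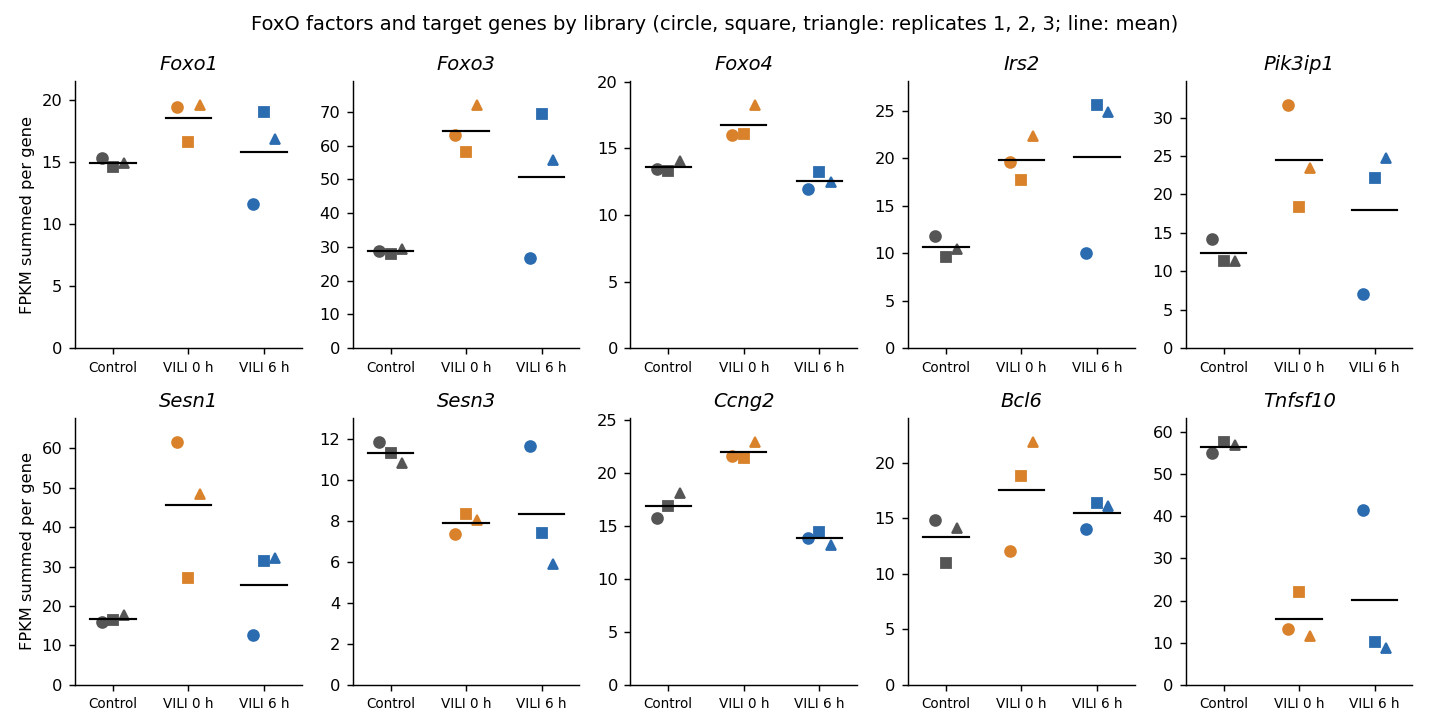
FPKM summed per gene (vertical axes from 0, each gene on its own scale) of the 10 FoxO genes in the 9 libraries, by group, with circle, square and triangle for replicates 1, 2 and 3 and a line at the group mean. VILI 6 h replicate 1 (blue circle) lies within the control range for Irs2, Sesn3 and Bcl6 and below it for the other 7 genes, and Tnfsf10 goes from 54.9 to 57.6 FPKM in control to 11.7 to 22.1 FPKM in VILI 0 h.

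Of the FoxO factors, Foxo3 showed the largest difference. Foxo3 encodes a factor of stress resistance and apoptosis that is broadly expressed. Foxo3 (ENSMUSG00000048756, GRCm38 chr10:42181841-42276755, minus strand, 5 transcript rows) was at 28.9, 28.0 and 29.3 FPKM in control replicates 1 to 3. It was at 63.1, 58.1 and 72.0 FPKM in VILI 0 h and at 26.8, 69.3 and 55.7 FPKM in VILI 6 h. All 3 libraries of VILI 0 h lay above control, and so did replicates 2 and 3 of VILI 6 h, while replicate 1 of VILI 6 h lay just below. The means were 28.7 ± 0.639, 64.4 ± 7.02 and 50.6 ± 21.7 FPKM (SD, n = 3 in each group), which is 2.24-fold and 1.76-fold of control, and 2.17-fold over VILI 6 h replicates 2 and 3. The log2 fold change of VILI 0 h vs control was 1.16 (SE 0.29, adjusted p = 0.104, and adjusted p = 0.00105 without VILI 6 h replicate 1). That of VILI 6 h vs control was 0.71 (SE 0.29, adjusted p = 0.213), or 1.11 without VILI 6 h replicate 1 (adjusted p = 0.000938).

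Foxo1, the factor best known from insulin action and vessel growth, and Foxo4 differed less. Foxo1 (ENSMUSG00000044167, chr3:52268336-52353221, plus strand, 1 row) was at 15.4, 14.6 and 14.9 FPKM in control, at 19.5, 16.6 and 19.6 FPKM in VILI 0 h and at 11.6, 19.0 and 16.8 FPKM in VILI 6 h. VILI 0 h lay above control in each library, by 1.24-fold in the mean, but the limma test did not pass with 9 libraries (log2 fold change 0.31, SE 0.17, adjusted p = 0.414) and had an adjusted p of 0.101 without VILI 6 h replicate 1. At VILI 6 h the libraries lay on both sides of control (log2 fold change 0.05, adjusted p = 0.883), and without replicate 1 the value was 0.26 (adjusted p = 0.116). Foxo4 (ENSMUSG00000042903, chrX:101254528-101260873, plus strand, 2 rows) was at 13.4, 13.3 and 14.0 FPKM in control, at 16.0, 16.1 and 18.2 FPKM in VILI 0 h and at 12.0, 13.2 and 12.5 FPKM in VILI 6 h. Its VILI 0 h libraries lay above those of both other groups. The log2 fold change of Foxo4 was 0.30 in VILI 0 h vs control (SE 0.098, adjusted p = 0.187) and -0.41 for VILI 6 h compared with VILI 0 h (SE 0.098, adjusted p = 0.247). At VILI 6 h vs control it was -0.11 (adjusted p = 0.525), and 0.015 with median-centred libraries. Lung is a mixture of cells, and in whole tissue fewer cells of a type that holds a transcript and less of it per cell cannot be told apart. Beside these values, the summed FPKM of the 10 endothelial markers was 1167 to 1234 in control, 1125 to 1369 in VILI 0 h and 1085 to 1221 in VILI 6 h, and none of them was at 0. Of these 10 markers 1 was higher and 1 lower at VILI 0 h and 4 were lower at VILI 6 h, with a P under 0.05. The shares of all genes were 16.2% and 20.4%, the first near that of the markers. Leaving out VILI 6 h replicate 1 gave 3 higher and 2 lower at VILI 0 h, beside 23.2% of all genes. It gave 3 higher and 5 lower at VILI 6 h, beside 38.8%. Of these, 1 and 5 in all had an adjusted p under 0.05, beside 6.93% and 23.3% of all genes. The part of the endothelial markers in the FoxO differences was not tested.

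The rows of a gene differ in transcript structure, although the file gives no transcript identifiers for them. One of the 5 Foxo3 rows, the third, held 86.8% of the Foxo3 sum. It was at 24.1, 24.1 and 24.0 FPKM in control, at 56.9, 50.6 and 65.4 FPKM in VILI 0 h and at 22.1, 59.6 and 47.7 FPKM in VILI 6 h, and the other 4 rows stayed under 5 FPKM in every library. Sesn1 and Pik3ip1 were also divided unequally. The first Sesn1 row held 86.0% of the sum and was at 12.5 ± 1.19, 41.3 ± 16.5 and 21.6 ± 10.3 FPKM in control, VILI 0 h and VILI 6 h, whereas the second was at 4.17 ± 0.284, 4.37 ± 0.990 and 3.74 ± 0.792 FPKM (SD, n = 3). The first Pik3ip1 row (41.7% of the sum) was at 0.855, 1.16 and 3.69 FPKM in control, at 21.1, 4.87 and 16.0 FPKM in VILI 0 h and at 0.730, 3.83 and 16.1 FPKM in VILI 6 h. The fourth Pik3ip1 row (35.7%) was at 6.78 ± 1.099, 6.56 ± 2.49 and 6.21 ± 3.73 FPKM (SD, n = 3). Row values rest on how Cuffdiff divided fragments between overlapping transcripts, and no test of a single row is given.

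**Figure D2:**
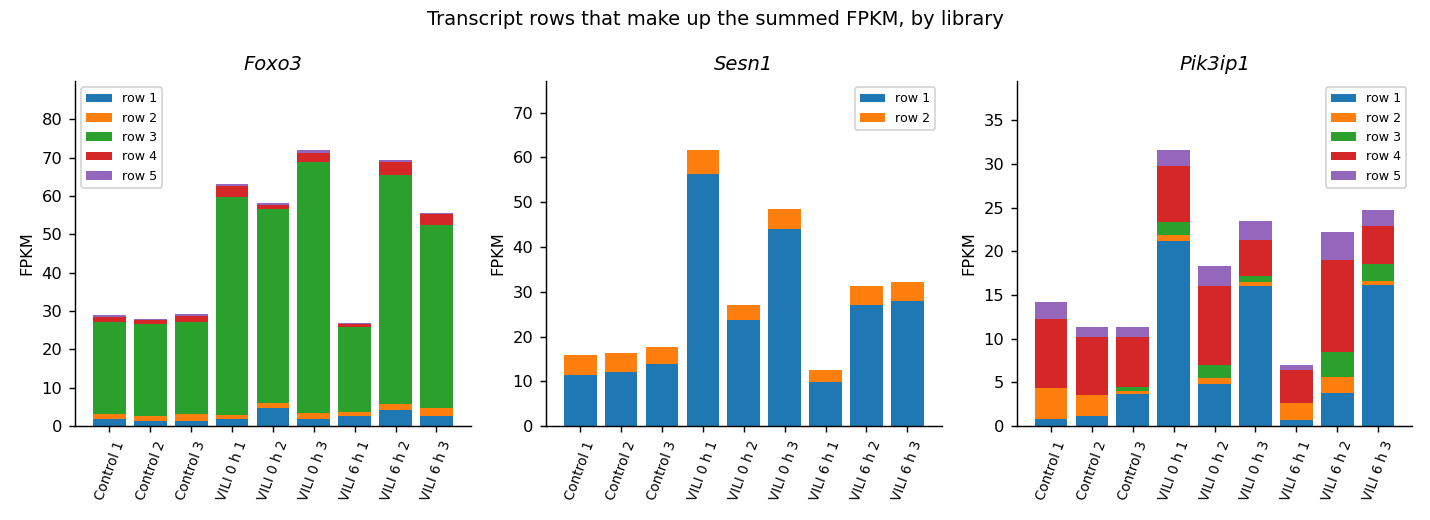
FPKM of each transcript row (stacked colours, rows numbered in file order) of Foxo3, Sesn1 and Pik3ip1 in the 9 libraries, with the bar height as the sum per gene and the axis from 0. Row 3 of Foxo3 and row 1 of Sesn1 make up 86.8% and 86.0% of the sums and carry most of the height in VILI 0 h, and row 1 of Pik3ip1 goes from 0.855 to 3.69 FPKM in control to 4.87 to 21.1 FPKM in VILI 0 h.

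Promoters of the members were searched for letters that FoxO proteins are known to bind. The motifs were the FoxO consensus core TGTTTAC (or GTAAACA on the other strand) and the core CAAAACA (or TGTTTTG) of the insulin response sequence, which share the letters TGTTT, so that a single site holds at most one of them. The RefSeq promoters on GRCm38.p6 run from 250 bases before to 50 bases after a start annotated by RefSeq, and 11 of them belonged to 9 of the 10 genes, with none for Foxo4. TGTTTAC or its complement stood in 1 of the 11 (Sesn1), beside 3.65% of 32851 promoters of the same length and 6 of 63 promoters of the other FoxO pathway genes. CAAAACA or its complement stood in 2 of the 11 (Ccng2 and Irs2), beside 6.28% of all promoters and 3 of 63. Such a match is a description of letters, and no binding was measured in these mice. The 5 sequences printed are those with a match, and the promoters of the FoxO factor and of the target that differed most from control at VILI 0 h among those without one. They read 5′ to 3′ on the gene's strand with the motif in capitals. Sesn1 (plus strand, chr10:41810585-41810614) and Ccng2 (plus strand, chr5:93267546-93267575) are shown as the 30 bases around the match, which is at positions 23 to 29 after the RefSeq start in Sesn1 and at -16 to -10 in Ccng2. Irs2 (minus strand, chr8:11008930-11009179) has its match at -37 to -31. The Sesn1 and Ccng2 stretches lie within annotated exons of these genes (GENCODE M21), and the other stretches overlap no annotated exon. The Irs2 stretch is the part of its promoter before the RefSeq start. Those of Foxo3 and Tnfsf10 are the parts before the GENCODE start. The RefSeq starts are not the ends of the genes given in this report, whose coordinates are those of GENCODE M21. The RefSeq start lies 639 bases downstream of the GENCODE one in Sesn1, 316 in Ccng2, 60 in Foxo3 and 49 in Tnfsf10, and 471 bases upstream of it in Irs2. Foxo3 (minus strand, chr10:42276756-42276945) and Tnfsf10 (plus strand, chr3:27316827-27317027) have neither motif in the whole promoter. Printed are 250 bases for Irs2, 190 for Foxo3 and 201 for Tnfsf10, not the whole promoters.
Sesn1: gaaccttctacTGTTTACcagccttttggg
Ccng2: cgtcgcagactCAAAACAaaaacaaggggt
Irs2: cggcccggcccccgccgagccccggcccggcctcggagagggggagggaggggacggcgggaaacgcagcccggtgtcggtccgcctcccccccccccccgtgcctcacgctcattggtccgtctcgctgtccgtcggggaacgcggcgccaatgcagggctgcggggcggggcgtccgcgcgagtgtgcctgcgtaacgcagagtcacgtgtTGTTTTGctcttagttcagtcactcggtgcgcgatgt
Foxo3: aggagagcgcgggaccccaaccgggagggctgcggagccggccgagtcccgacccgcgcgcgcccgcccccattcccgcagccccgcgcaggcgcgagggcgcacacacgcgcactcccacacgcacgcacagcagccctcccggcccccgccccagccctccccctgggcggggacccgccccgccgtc
Tnfsf10: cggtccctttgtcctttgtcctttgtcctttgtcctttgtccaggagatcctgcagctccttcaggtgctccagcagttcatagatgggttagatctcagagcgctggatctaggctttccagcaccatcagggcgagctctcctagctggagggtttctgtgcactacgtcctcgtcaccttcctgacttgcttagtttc

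The targets that act in insulin and PI3K signalling, Irs2 and Pik3ip1, were both higher at VILI 0 h, by 1.87-fold and 1.98-fold. Irs2 encodes the adaptor through which the insulin receptor activates PI3K, and Pik3ip1 encodes a membrane protein that inhibits PI3K. Irs2 (ENSMUSG00000038894, chr8:10984681-11008458, minus strand, 1 row), one of the promoters printed above, was at 11.8, 9.65 and 10.4 FPKM in control. It was at 19.6, 17.7 and 22.4 FPKM in VILI 0 h and at 10.1, 25.6 and 24.9 FPKM in VILI 6 h. The VILI 0 h libraries lay above all control libraries, and VILI 6 h replicates 2 and 3 lay above those of VILI 0 h, with replicate 1 in the control range. Its log2 fold change was 0.89 at VILI 0 h (SE 0.31, adjusted p = 0.206) and 0.80 at VILI 6 h (SE 0.31, adjusted p = 0.195). Without VILI 6 h replicate 1 these were 0.89 and 1.24 (adjusted p = 0.00399 and 0.000741), and Irs2 was 0.35 higher in VILI 6 h than in VILI 0 h on the log2 scale (adjusted p = 0.158), where the fit of 9 libraries gave -0.09.

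Pik3ip1 (ENSMUSG00000034614, chr11:3330401-3342971, plus strand, 5 rows) was at 14.3, 11.3 and 11.4 FPKM in control, at 31.6, 18.3 and 23.4 FPKM in VILI 0 h and at 7.02, 22.2 and 24.8 FPKM in VILI 6 h. Every library of VILI 0 h was above control, and VILI 6 h replicate 1 was the lowest of the 9 libraries while its group mates lay within the VILI 0 h range. The log2 fold change at VILI 0 h was 0.96 (SE 0.42, adjusted p = 0.301, and adjusted p = 0.0213 without VILI 6 h replicate 1). At VILI 6 h it was 0.36 (SE 0.42, adjusted p = 0.640), and 0.93 without replicate 1 (adjusted p = 0.0159).

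The sestrin genes differed in opposite directions, with Sesn1 higher and Sesn3 lower in VILI 0 h. Sestrins are stress proteins that inhibit the growth kinase complex mTORC1, and Sesn1 is also a target of p53. Sesn1 (ENSMUSG00000038332, chr10:41809935-41908424, plus strand, 2 rows) was at 15.8, 16.4 and 17.6 FPKM in control, at 61.6, 27.1 and 48.4 FPKM in VILI 0 h and at 12.6, 31.3 and 32.2 FPKM in VILI 6 h. All VILI 0 h libraries lay above control with a wide spread, 45.7 ± 17.4 against 16.6 ± 0.922 FPKM (SD, n = 3), and VILI 6 h replicates 2 and 3 lay between replicate 2 and replicate 3 of VILI 0 h. The fold over control was 2.75 at VILI 0 h and 1.53 at VILI 6 h. Its log2 fold change was 1.37 (SE 0.38, adjusted p = 0.127) at VILI 0 h, with an adjusted p of 0.0162 without VILI 6 h replicate 1. At VILI 6 h it was 0.49 (SE 0.38, adjusted p = 0.474), and 0.93 without replicate 1 (adjusted p = 0.0417). The difference between the VILI groups, -0.89 (adjusted p = 0.478), was -0.44 without that library (adjusted p = 0.369).

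Sesn3 (ENSMUSG00000032009, chr9:14275067-14333101, plus strand, 3 rows) was at 11.9, 11.3 and 10.9 FPKM in control, at 7.39, 8.36 and 8.04 FPKM in VILI 0 h and at 11.7, 7.41 and 5.92 FPKM in VILI 6 h. VILI 0 h lay below control in every library, at 0.698-fold, and so did VILI 6 h replicates 2 and 3, at 0.587-fold, while replicate 1 stood in the control range. The log2 fold change was -0.51 at VILI 0 h (SE 0.21, adjusted p = 0.274) and -0.50 at VILI 6 h (SE 0.21, adjusted p = 0.228). Without VILI 6 h replicate 1 they were -0.51 and -0.77 (adjusted p = 0.0329 and 0.00543). The third sestrin gene, Sesn2, which stood in the list of other targets, was at 5.02 to 5.14 FPKM in control, at 11.5, 7.90 and 11.5 FPKM in VILI 0 h and at 4.86, 10.9 and 8.91 FPKM in VILI 6 h. Sesn2 thus lay above control in the same 5 ventilated libraries as Sesn1, with log2 fold changes of 0.99 and 0.61 (adjusted p = 0.129 and 0.247). The Sesn2 values without VILI 6 h replicate 1 were 0.99 and 0.94 (adjusted p = 0.0106 and 0.00879).

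Among the targets of cell cycle, differentiation and death, Tnfsf10 was the member with the largest difference of all. Tnfsf10 encodes TRAIL, a ligand that triggers apoptosis through death receptors. Tnfsf10 (ENSMUSG00000039304, chr3:27317028-27342427, plus strand, 2 rows) was at 54.9, 57.6 and 56.8 FPKM in control, at 13.2, 22.1 and 11.7 FPKM in VILI 0 h and at 41.4, 10.1 and 8.78 FPKM in VILI 6 h. All 6 ventilated libraries lay below all 3 control libraries, with VILI 6 h replicate 1 the nearest to control. The means were 56.5 ± 1.39, 15.7 ± 5.63 and 20.1 ± 18.5 FPKM (SD, n = 3), or 0.277-fold and 0.356-fold of control, and 0.167-fold over VILI 6 h replicates 2 and 3. The log2 fold change was -1.90 at VILI 0 h (SE 0.50, adjusted p = 0.118) and -1.86 at VILI 6 h (SE 0.50, adjusted p = 0.111). Without VILI 6 h replicate 1 they were -1.90 and -2.57 (adjusted p = 0.00206 and 0.000455), and the difference of VILI 6 h from VILI 0 h was -0.67 (adjusted p = 0.142) where the fit of 9 libraries gave 0.04.

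Ccng2 encodes cyclin G2, an unusual cyclin that holds back the cell cycle. Ccng2 (ENSMUSG00000029385, chr5:93267257-93276231, plus strand, 2 rows) was at 15.8, 16.9 and 18.1 FPKM in control, at 21.6, 21.5 and 22.9 FPKM in VILI 0 h and at 13.9, 14.4 and 13.2 FPKM in VILI 6 h. The groups did not overlap in any of the comparisons, with VILI 0 h on top and VILI 6 h at the bottom, and here VILI 6 h replicate 1 lay between its group mates. Its log2 fold change was 0.38 at VILI 0 h (SE 0.094, adjusted p = 0.105) and -0.29 at VILI 6 h (SE 0.094, adjusted p = 0.151). VILI 6 h was below VILI 0 h by a log2 fold change of -0.67 (SE 0.094, adjusted p = 0.115), and the adjusted p was 0.0222 without VILI 6 h replicate 1. The difference of VILI 6 h from control was -0.16 with median-centred libraries (adjusted p = 0.431). Bcl6 encodes a transcriptional repressor known from germinal centre B cells. Bcl6 (ENSMUSG00000022508, chr16:23965052-23988852, minus strand, 1 row) was at 14.8, 10.97 and 14.1 FPKM in control, at 12.1, 18.8 and 21.9 FPKM in VILI 0 h and at 14.0, 16.4 and 16.1 FPKM in VILI 6 h. The Bcl6 groups overlapped in all 3 comparisons, and its log2 fold changes of 0.37 and 0.23 over control did not pass (adjusted p = 0.425 and 0.546), nor did they without VILI 6 h replicate 1 (0.37 and 0.30, adjusted p = 0.325 and 0.370). Beside Bcl6, 6 B cell markers summed to 50.6 to 68.2 FPKM in control, 21.6 to 66.7 FPKM in VILI 0 h and 15.1 to 43.2 FPKM in VILI 6 h, with 1 and 4 of them lower than control at a P under 0.05. Among all genes 16.2% and 20.4% had such a P in either direction, the first near the share of the B cell markers. The counts without VILI 6 h replicate 1 were 1 and 2 of 6, neither above the 23.2% and 38.8% of all genes. The median log2 fold change of the markers at VILI 6 h was then -0.80 in place of -1.14. The part of the B cell markers was not tested.

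**Figure D3:**
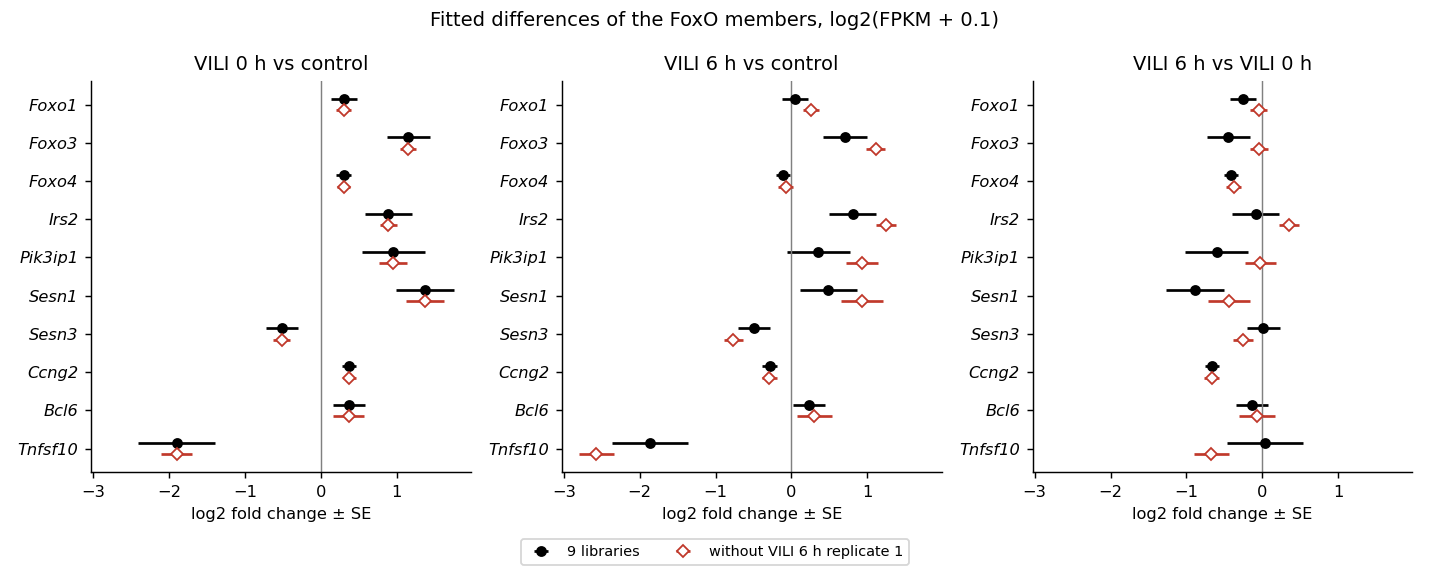
Log2 fold change of each FoxO gene on log2(FPKM + 0.1) with its standard error from limma (horizontal axis), in the 3 comparisons, for the fit of 9 libraries (black circles) and without VILI 6 h replicate 1 (open red diamonds). Leaving that library out shortens most error bars and moves VILI 6 h vs control away from 0 for Foxo3 (0.71 to 1.11), Irs2 (0.80 to 1.24), Pik3ip1 (0.36 to 0.93), Sesn1 (0.49 to 0.93) and Tnfsf10 (-1.86 to -2.57).

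In control lung the order of the levels in FPKM, a scale per length of transcript, was Tnfsf10 (56.5), Foxo3 (28.7), Ccng2 (16.9), Sesn1 (16.6), Foxo1 (14.96), Foxo4 (13.6), Bcl6 (13.3), Pik3ip1 (12.3), Sesn3 (11.4) and Irs2 (10.6). Tnfsf10 and Foxo3 lay apart from each other and from the next gene, as did Sesn1 from Foxo1 and Foxo1 from Foxo4. The other neighbours, Ccng2 with Sesn1 and each pair from Foxo4 down to Irs2, had overlapping ranges over the 3 mice. In the VILI 0 h means Foxo3 (64.4 FPKM) and Sesn1 (45.7 FPKM) led, and only Sesn3 (7.93 FPKM) was below Tnfsf10 (15.7 FPKM). The Tnfsf10 range there, 11.7 to 22.1 FPKM, overlapped those of Foxo1, Foxo4, Irs2, Pik3ip1, Ccng2 and Bcl6. The ranges of Foxo3 (58.1 to 72.0 FPKM) and Sesn1 (27.1 to 61.6 FPKM) overlapped as well.

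Tnfsf10, Sesn1 and Foxo3 had the largest log2 fold changes against control in either direction, all at VILI 0 h. At VILI 6 h Irs2 (0.80) was above Foxo3 (0.71) and Sesn1 (0.49). The genes most like Tnfsf10, Sesn1 and Foxo3 were sought by the root-mean-square difference of log2(FPKM + 0.1), each gene centred on its control mean, over the 9 libraries and 13078 protein-coding genes with a mean of at least 1 FPKM. For Tnfsf10 they were Sox11 (0.267), Nat8f7 (0.299) and Nat8f3 (0.335). Sox11, a developmental transcription factor, was at 12.3, 11.9 and 12.7 FPKM in control, at 2.63, 4.20 and 4.01 FPKM in VILI 0 h and at 8.05, 2.004 and 1.46 FPKM in VILI 6 h. For Sesn1 they were Pmvk (0.203), an enzyme of the mevalonate pathway, Trp53inp1 (0.277), a p53 target, and Chst15 (0.287). Pmvk was at 74.0, 24.7 and 43.1 FPKM in VILI 0 h and at 13.7 to 16.5 FPKM in control, so it shared with Sesn1 the order of the VILI 0 h replicates. For Foxo3 they were Hpcal1 (0.137), AA986860 (0.140) and Ston1 (0.146), and Hpcal1 was at 30.6 to 32.2 FPKM in control, at 59.9 to 78.6 FPKM in VILI 0 h and at 33.2, 71.4 and 73.6 FPKM in VILI 6 h. These likenesses rest on libraries that share their group differences and the one library that stood apart.

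Other genes of the pathway were taken from 3 lists with 57 genes in all, of which 55 could be tested, since G6pc was under the minimum and Igfbp1 was listed at 0 in all libraries. In VILI 0 h vs control 22 of the 55 had an unadjusted P under 0.05, 18 higher and 4 lower. In VILI 6 h vs control there were 20, 11 higher and 9 lower, and between the VILI groups 14, 4 higher and 10 lower. The counts without VILI 6 h replicate 1 were 28, 30 and 14 of the 55, beside 23.2%, 38.8% and 22.4% of all genes, so between the VILI groups the share of the lists is then near that of all genes. No gene of the lists had an adjusted p under 0.05 in the limma fit of 9 libraries, and 16, 19 and 1 did without VILI 6 h replicate 1. The shares of all genes under these rules are those given above. The medians of the lists together were 0.19, 0.06 and -0.10 on the log2 scale.

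Above FoxO stand 14 genes of insulin and PI3K-Akt signalling. At VILI 0 h 2 of the 14 had a P under 0.05, a share below the 16.2% of all genes, and both were higher, the receptor genes Igf1r (log2 fold change 0.24, adjusted p = 0.288) and Insr (0.21, adjusted p = 0.303). At VILI 6 h 3 were higher and 3 lower, 6 of 14 beside 20.4% of all genes. The list without VILI 6 h replicate 1 counted 4 higher and 1 lower at VILI 0 h, beside 23.2% of all genes, and 4 of each at VILI 6 h, beside 38.8%, of which 1 and 3 in all had an adjusted p under 0.05. Sgk1, a kinase that phosphorylates FoxO proteins as Akt does and is a classic glucocorticoid target, was at 40.2 to 41.4 FPKM in control. It was at 98.0, 55.6 and 97.1 FPKM in VILI 0 h and at 42.1, 134 and 164 FPKM in VILI 6 h, with log2 fold changes of 0.99 at VILI 0 h (adjusted p = 0.310) and 1.254 at VILI 6 h (SE 0.44, adjusted p = 0.171). The Sgk1 values without VILI 6 h replicate 1 were 0.99 and 1.86 (adjusted p = 0.0251 and 0.00139). Igf1r was also higher at VILI 6 h, at 19.98, 22.5 and 19.1 FPKM against 15.7 to 17.3 FPKM in control, and in it VILI 6 h replicate 1 lay with its group. Irs1, the adaptor related to Irs2, was lower at VILI 6 h (log2 fold change -0.72, SE 0.28, adjusted p = 0.206), at 8.83, 6.69 and 3.42 FPKM against 9.11 to 10.6 FPKM in control, and Pik3r1, the regulatory subunit of PI3K, was at -0.35 (SE 0.091, adjusted p = 0.103). Irs1 was at -1.01 and Pik3r1 at -0.38 without VILI 6 h replicate 1 (adjusted p = 0.01998 and 0.0220). Between the VILI groups Akt1 was at 0.21 (adjusted p = 0.489) and Irs1 at -0.77 (adjusted p = 0.423), and without VILI 6 h replicate 1 they were at 0.19 and -1.06 (adjusted p = 0.277 and 0.0641), where Akt1 no longer had a P under 0.05. The median of the list was 0.01 at both times, beside -0.07 and -0.09 in all genes, and at VILI 6 h it was -0.08 without VILI 6 h replicate 1, beside -0.14.

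Of the 13 genes that modify FoxO proteins, with the brain-enriched factor gene Foxo6, 1 was higher and 2 lower at VILI 0 h with a P under 0.05, 3 of 13 beside 16.2% of all genes, and 3 were lower at VILI 6 h, beside 20.4%. Without VILI 6 h replicate 1 these counts were the same, beside 23.2% and 38.8%, so the list was then at or below the share of all genes. The higher gene was Skp2, a ubiquitin ligase subunit, which was low, at 0, 0.471 and 0 FPKM in control, at 0.332, 0.392 and 0.512 FPKM in VILI 0 h and listed at 0 in VILI 6 h, so that its control and VILI 0 h libraries overlapped. Stk4, the kinase MST1 that phosphorylates FoxO under oxidative stress, was at 51.1, 45.9 and 48.8 FPKM in control, at 28.6, 34.4 and 28.6 FPKM in VILI 0 h and at 45.8, 24.4 and 26.6 FPKM in VILI 6 h. Its log2 fold changes were -0.67 and -0.65 (SE 0.21, adjusted p = 0.170 and 0.149), and -0.67 and -0.93 without VILI 6 h replicate 1 (adjusted p = 0.00656 and 0.00120). Prkaa2, a catalytic subunit of AMP-activated kinase, was lower at both times (-0.29 and -0.31, adjusted p = 0.266 and 0.186). Mapk8, the kinase JNK1, was lower at VILI 6 h (-0.55, adjusted p = 0.166). The deacetylase gene Sirt1 was lower in VILI 6 h than in VILI 0 h (-0.50, adjusted p = 0.418). Without VILI 6 h replicate 1, Prkaa2 was at -0.29 and -0.34 (adjusted p = 0.152 and 0.0709). Mapk8 was then at -0.50 (adjusted p = 0.113) and Sirt1 at -0.55 (adjusted p = 0.157).

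The 30 other targets, 28 of them tested, held most of the higher genes. At VILI 0 h 15 of the 28 were higher and 2 lower with a P under 0.05, beside 6.81% and 9.35% of all genes. The median log2 fold change was 0.58 against -0.07 in all genes. Pdk4, which encodes the kinase that shuts pyruvate dehydrogenase in fasting, was at 1.99, 2.03 and 2.499 FPKM in control, at 30.7, 15.6 and 29.4 FPKM in VILI 0 h and at 2.24, 19.2 and 22.6 FPKM in VILI 6 h. The VILI 0 h libraries and VILI 6 h replicates 2 and 3 lay far above control, and VILI 6 h replicate 1 lay in the control range. Its log2 fold changes were 3.42 (SE 0.73, adjusted p = 0.0769) and 2.16 (SE 0.73, adjusted p = 0.161). The Pdk4 values without VILI 6 h replicate 1 were 3.42 and 3.21 (adjusted p = 0.000281 and 0.000358). Cdkn1a, the cell cycle inhibitor p21 and also a p53 target, was at 14.2, 19.0 and 15.6 FPKM in control. It was at 207, 43.0 and 173 FPKM in VILI 0 h and at 22.4, 133 and 202 FPKM in VILI 6 h (log2 fold changes 2.83 and 2.38, SE 0.79, adjusted p = 0.135 and 0.156). Those of Cdkn1a without VILI 6 h replicate 1 were 2.83 and 3.33 (adjusted p = 0.0159 and 0.00610). The cyclin genes, which FoxO factors are known to repress, were lower at VILI 0 h, Ccnd1 at -0.43 (adjusted p = 0.248) and Ccnd2 at -0.41 (adjusted p = 0.105), with adjusted p = 0.0350 and 0.0170 without VILI 6 h replicate 1.

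At VILI 6 h 8 of the 28 other targets tested were higher and 3 lower with a P under 0.05, beside 8.17% and 12.2% of all genes. Ccnd2 was at 41.0, 32.4 and 34.7 FPKM against 47.7 to 51.4 FPKM in control (log2 fold change -0.48, SE 0.10, adjusted p = 0.0702, and -0.58 with adjusted p = 0.00334 without replicate 1). Angpt2, the endothelial ligand that destabilises vessels, was at 6.96, 8.16 and 9.53 FPKM in control, at 6.94, 6.64 and 5.71 FPKM in VILI 0 h and at 5.37, 3.03 and 3.17 FPKM in VILI 6 h. The Angpt2 libraries of VILI 6 h all lay below those of both other groups, with a log2 fold change of -1.11 against control (SE 0.22, adjusted p = 0.0598), and -1.37 without replicate 1 (adjusted p = 0.00115). Without VILI 6 h replicate 1 the 28 tested genes counted 17 higher and 3 lower at VILI 0 h, beside 23.2% of all genes. At VILI 6 h they then counted 15 higher and 4 lower, beside 38.8%. Of these, 14 and 15 in all had an adjusted p under 0.05, beside 6.93% and 23.3% of all genes. Between the VILI groups 3 were higher and 7 lower in the fit of 9 libraries, 10 of 28 beside 10% of all genes. Without VILI 6 h replicate 1 there were 3 higher and 5 lower, 8 of 28, which is near the 22.4% of all genes. Among the 10 were Sod2, the mitochondrial superoxide dismutase (0.71, adjusted p = 0.440), Ccnd1 (0.51, adjusted p = 0.369), Pck1, an enzyme of gluconeogenesis (-2.04, adjusted p = 0.325), and Il7r, the receptor of interleukin 7 (-0.98, adjusted p = 0.490). Il7r was at -0.42 without VILI 6 h replicate 1 and no longer had a P under 0.05 (adjusted p = 0.361), while Pck1 was at -1.55 (adjusted p = 0.162) and Ccnd1 at 0.31 (adjusted p = 0.1475). Pck1 was low, at 1.46, 4.69 and 3.54 FPKM in VILI 0 h and 0.267, 1.54 and 0.544 FPKM in VILI 6 h. Sod2 was at 70.4 FPKM in VILI 6 h replicate 3 against 28.6 and 33.4 FPKM in its group mates.

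**Figure D4:**
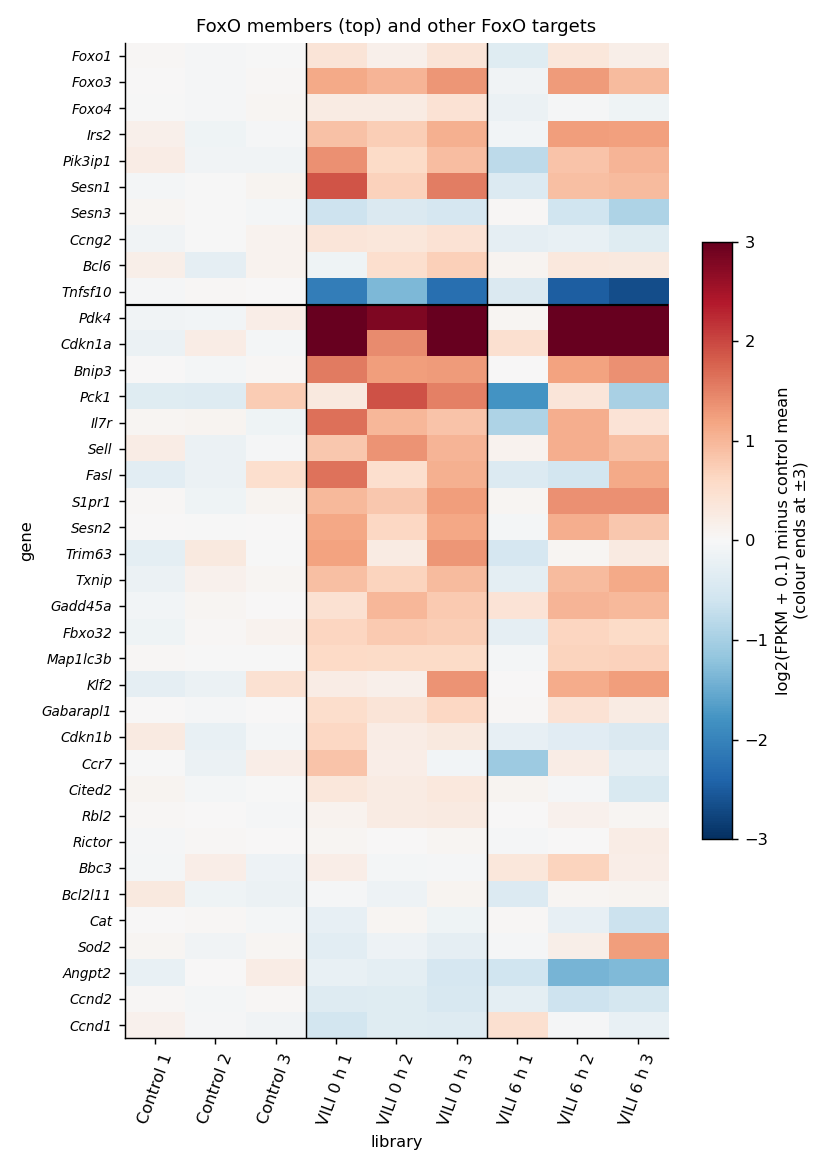
Log2(FPKM + 0.1) minus the control mean (colour scale that ends at 3 in either direction) of the 10 FoxO genes (top) and the 28 other tested targets (below the line) in the 9 libraries, with vertical lines between groups. Foxo3, Irs2, Sesn1, Pdk4 and Cdkn1a are red and Tnfsf10 is blue in VILI 0 h and in VILI 6 h replicates 2 and 3, whereas most cells of VILI 6 h replicate 1 are pale, with a median absolute difference of 0.23 over the 10 FoxO genes.

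Marker lists were read beside these results. The 10 neutrophil markers summed to 52.7 to 65.2 FPKM in control, 571 to 1033 FPKM in VILI 0 h and 495 to 2007 FPKM in VILI 6 h, and 9 of 10 were higher with a P under 0.05 in each VILI group vs control. Ly6g and Camp were each at 0 in at least 1 library. The 6 glucocorticoid-induced genes summed to 179 to 227 FPKM in control and 667 to 1046 FPKM in VILI 0 h, and to 137, 805 and 818 FPKM in VILI 6 h replicates 1 to 3, so replicate 1 was below control in this list as in 7 of the 10 FoxO genes. All 6 of these genes were higher with a P under 0.05 at VILI 0 h and 2 at VILI 6 h, and all 6 at both times without VILI 6 h replicate 1, each with an adjusted p under 0.05, with a median log2 fold change at VILI 6 h of 2.26 in place of 1.24. The neutrophil sum of VILI 6 h replicate 1, in contrast, lay above all control libraries. Alveolar macrophage markers summed to 167 to 223, 255 to 353 and 183 to 568 FPKM (6 markers, 3 and 1 higher), and T and NK cell markers to 44.1 to 52.6, 36.0 to 54.9 and 20.4 to 91.7 FPKM (10 markers, 1 lower in each). Alveolar type 1 markers summed to 1183 to 1227, 1196 to 1468 and 1044 to 1530 FPKM (6 markers, 2 higher in each), fibroblast markers to 615 to 731, 524 to 622 and 497 to 669 FPKM (6 markers, 1 higher and 2 lower, then 2 lower). Cardiac muscle markers summed to 131 to 153, 125 to 274 and 137 to 165 FPKM, and erythroid markers to 3225 to 4182, 4915 to 5419 and 489 to 3867 FPKM, with none of 6 and none of 5 at a P under 0.05 against control in the fit of 9 libraries. All 5 erythroid markers were nevertheless higher than control without overlap at VILI 0 h (median log2 fold change 0.52), and all 5 had a P under 0.05 there without VILI 6 h replicate 1, 2 of them with an adjusted p under 0.05. Alveolar type 2 markers, which identify the tissue as lung, summed to 13382 to 14663, 13123 to 15553 and 12533 to 13312 FPKM (6 markers, 1 higher, then 1 lower), and no marker of any list was at 0 in all libraries. Beside these counts, 16.2% of all genes had a P under 0.05 at VILI 0 h and 20.4% at VILI 6 h. The T and NK cell and alveolar type 2 counts, and the alveolar macrophage count at VILI 6 h, were near or below these shares. The marker counts at a P under 0.05 without VILI 6 h replicate 1 were 8 and 10 higher for neutrophil markers, 4 higher, then 2 higher and 1 lower for alveolar macrophage, 1 lower, then none for T and NK cell, and 2 higher, then 1 higher and 2 lower for alveolar type 1 markers. They were 1 higher and 3 lower, then 1 higher and 2 lower for fibroblast markers and 2 higher, then 1 lower for alveolar type 2 markers. The shares of all genes were then 23.2% and 38.8%. The T and NK cell counts at both times and the alveolar type 2 count at VILI 6 h were below them. The part of cell composition and of the glucocorticoid-induced genes in the FoxO differences was not tested.

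**Figure D5:**
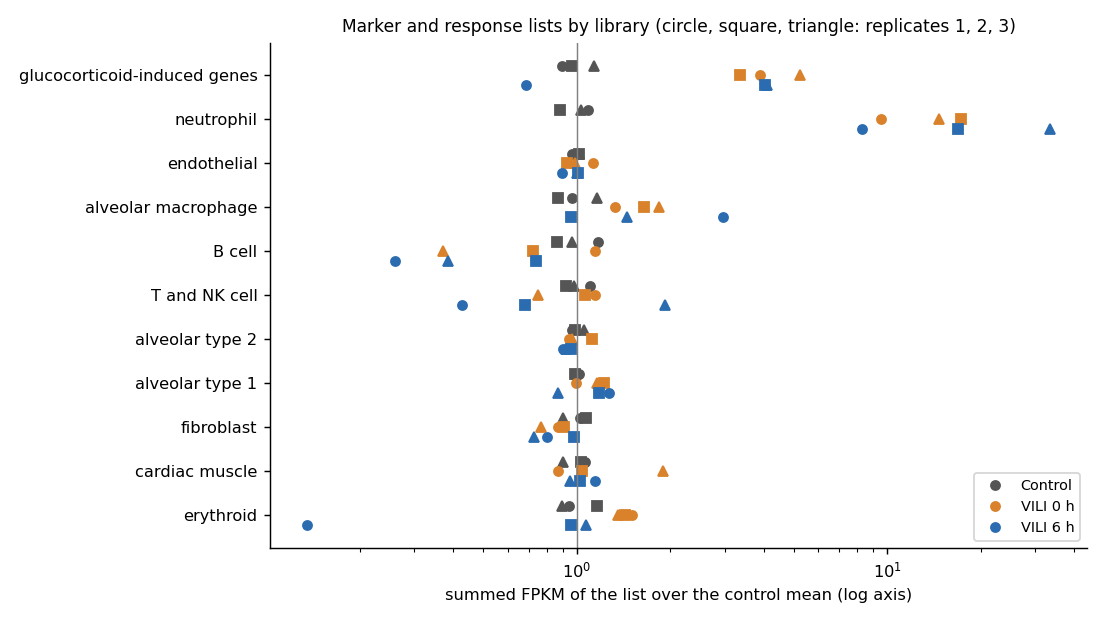
Summed FPKM of each marker or response list over its control mean (horizontal log axis) in the 9 libraries, with colours for groups and circle, square and triangle for replicates 1, 2 and 3. Neutrophil markers lie to the right of control in all 6 ventilated libraries, while the glucocorticoid-induced genes lie to the right in VILI 0 h (667 to 1046 FPKM) and in VILI 6 h replicates 2 and 3 but not in replicate 1 (137 FPKM).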

How the data were processed

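RNA-seq was performed on 9 lung libraries. According to the paper, total RNA was depleted of rRNA for a directional library kit, whereas the sample labels name another kit. Per the labels' processing notes, reads were aligned with TopHat2 2.0.9 and Bowtie2 2.0.6 to GRCm38 and FPKM were computed with Cuffdiff 2.1.1. The authors deposited FPKM for 60108 transcript rows. No library was pooled, and column sums ran from 366360 to 388459 FPKM. Here FPKM were summed per gene identifier, and 23580 of 23713 Ensembl identifiers matched GENCODE M21. Genes with a mean of at least 0.1 FPKM were tested with limma 3.58.1 in R 4.3.3 (lmFit and eBayes with a trend) on log2(FPKM + 0.1), a scale that understates differences of low genes, with group as the only factor, all 9 libraries in 1 fit and Benjamini-Hochberg adjustment over 19378 genes. The study's threshold was an unadjusted P under 0.05. Groups came from the sample labels. A P-value sets a group difference against a spread between mice that is pooled over the groups in the fit and moderated over genes. The procedure was tested on simulated data.

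The FoxO genes, the pathway and marker lists and the tests were chosen with earlier results of these data known. Of each pathway list and comparison, the 2 genes that rose most and the 2 that fell most were named among those with an unadjusted P under 0.05 and a mean of at least 1 FPKM. Sesn2, as the remaining sestrin gene, Skp2, as the one modifier gene that was higher, and Igfbp1 and G6pc, as the genes not tested, were named after their values were seen. Marker lists covered neutrophil, endothelial, B cell, T and NK cell, alveolar type 1, alveolar type 2, alveolar macrophage, fibroblast, cardiac muscle and erythroid genes, and a further list glucocorticoid-induced genes. Promoter sequences are from RefSeq on GRCm38.p6. Alternatives were to leave out each library, to fit only the libraries of a comparison, to block on replicate number, to drop the trend, to centre libraries on their median, to take the row with the highest mean FPKM, to filter at 1 FPKM or not at all, and to add pseudocounts of 0.01 or 1.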

Additional observations from a re-analysis of the deposited data

Results flagged for a closer look

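For 3 of the FoxO genes the difference from control was itself different at the times in the fit of 9 libraries, by the direct limma comparison of VILI 6 h with VILI 0 h at an unadjusted P under 0.05. The log2 fold change of VILI 6 h vs VILI 0 h was -0.41 for Foxo4 (SE 0.098, adjusted p = 0.247), with all 3 libraries of VILI 6 h below all 3 of VILI 0 h. It was -0.67 for Ccng2 (SE 0.094, adjusted p = 0.115), where Ccng2 was above control in 3 of 3 libraries of VILI 0 h and below it in 3 of 3 of VILI 6 h. It was -0.89 for Sesn1 (SE 0.38, adjusted p = 0.478), where the groups overlapped and the value was -0.44 without VILI 6 h replicate 1. None of the 3 passed the adjustment over 19378 genes with 9 libraries. Without VILI 6 h replicate 1, the adjusted p was 0.0222 for Ccng2, 0.0846 for Foxo4 and 0.369 for Sesn1. The genes with an unadjusted P under 0.05 were then Foxo4, Ccng2, Irs2 (0.35 higher in VILI 6 h, adjusted p = 0.158) and Tnfsf10 (-0.67, adjusted p = 0.142), while Sesn1 lost the call, as it did in the fit of only the 6 libraries of the VILI groups.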

How the results depend on the processing

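Of 270 comparisons of the 10 FoxO genes with another setting (9 settings), 247 kept their direction and side of an unadjusted P under 0.05, 21 lost the call, 1 gained it and 1 reversed, Foxo4 in VILI 6 h vs control, at 0.015 with median-centred libraries. With 1 library left out, 215 of 270 kept both, 38 lost the call, 8 gained it and 9 reversed. The number of FoxO genes with a P under 0.05 in VILI 6 h vs control was 2 with only the 6 libraries compared, 3 with eBayes without a trend and 3 with the row with the highest mean FPKM, beside 17.4%, 19.2% and 17.8% of all genes. The number with an adjusted p under 0.05 in VILI 0 h vs control was 7 with only the 6 libraries compared. The number of the 55 tested pathway genes with a P under 0.05 between the VILI groups was 9 with median-centred libraries and 8 with only the 6 libraries compared, beside 10% and 6.24% of all genes.

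With 1 library left out, the FoxO genes with a P under 0.05 numbered 4 to 9, 1 to 8 and 2 to 5 in VILI 0 h vs control, VILI 6 h vs control and between the VILI groups, and those with an adjusted p under 0.05 numbered 0 to 7, 0 to 6 and 0 to 1. Pathway genes with a P under 0.05 numbered 15 to 28, 9 to 30 and 9 to 16 of 55, while the share of all genes ran from 10.2% to 23.2%, 13.1% to 38.8% and 7.26% to 22.4%. In VILI 0 h vs control, the FoxO count was 5 without control replicate 2 and 4 without VILI 0 h replicate 3, beside 10.2% and 11.2% of all genes. In VILI 6 h vs control it was 3, 2 and 1 without control replicate 1, 2 and 3, beside 14.4%, 13.1% and 13.3% of all genes, and 8, 2 and 2 without VILI 6 h replicate 1, 2 and 3, beside 38.8%, 14.5% and 14.1%, so the counts of 1 and 2 of 10 are near the share of all genes. Between the VILI groups it was 5 without VILI 6 h replicate 2, beside 9.84%. The pathway count in VILI 6 h vs control was 13 without control replicate 3, 9 without VILI 6 h replicate 2 and 10 without VILI 6 h replicate 3, beside 13.3%, 14.5% and 14.1% of all genes, so the counts of 9 and 10 of 55 are near the share of all genes. Between the VILI groups it was 9 without VILI 0 h replicate 3, beside 7.26%. The cause of these shifts was not tested.

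Values that reversed with a library left out follow. Foxo1 in VILI 6 h vs control ran from -0.10 to 0.26, with -0.01 without VILI 6 h replicate 3. Between the VILI groups, Irs2 ran from -0.32 to 0.35, Sesn3 from -0.25 to 0.23 (-0.03 without VILI 0 h replicate 1), Bcl6 from -0.388 to 0.038 and Tnfsf10 from -0.67 to 0.44.

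The samples were treated as unpaired. Correlations of same-numbered libraries about their group means ran from -0.22 to 0.017, and those of differently numbered libraries from -0.12 to 0.17. Deviations within a group are not independent of each other, so these correlations cannot exclude a shared batch or pairing. A replicate block gave 7, 5 and 2 FoxO genes and 21, 21 and 12 pathway genes with a P under 0.05, beside 14.5%, 18% and 8.74% of all genes, and no FoxO gene with an adjusted p under 0.05. Over all genes the adjusted p was under 0.05 for 10, 43 and 0 genes with the block.

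FPKM carry no read counts per gene, so no counting interval can be given, and with 3 mice per group differences smaller than the spread between mice could not be detected.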
